A study of Mus musculus with 9 samples.

Results

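The genes described here encode elastin and the proteins that assemble and crosslink elastic fibres. They were 10 genes of the 55416 in the count table, taken by name: *Eln*, the fibrillins *Fbn1* and *Fbn2*, the fibulins *Fbln1*, *Fbln2* and *Fbln5*, the crosslinking enzymes *Lox* and *Loxl1*, and the microfibril and fibre-associated genes *Mfap5* and *Emilin1*. The group was selected on measured values of these same libraries, namely the opposite differences of *Eln* with the 2 phosphates, so the values of its members are a description. Intervals, and calls of the fit over all genes, are printed for them only to describe their spread, and nothing is supported by them. RNA was sequenced from MC3T3-E1, a single wild-type (WT) mouse line of pre-osteoblasts from calvarial bone, which all 3 groups share. All cells had been differentiated in osteogenic medium with 10 mM β-glycerophosphate (BGP), ascorbic acid and dexamethasone. The sample labels give 27 days of this differentiation, while the paper's methods have BGP withdrawn at day 21. Treatment began at day 27, with 4 mM BGP, an organic phosphate, or with 4 mM NaHPO4, the study's name for a mixture of the inorganic phosphates Na2HPO4 and NaH2PO4, for 16 h. Control cells received no added phosphate, and RNA was harvested at day 28. The culture medium itself held inorganic phosphate in all groups, which the paper names as a possible confounder. Each group had 3 libraries. The sources used here do not say whether these came from separate cultures, so the errors measure the spread between libraries, which may be technical.

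Elastic fibres form when soluble tropoelastin, the product of *Eln*, is deposited on a scaffold of microfibrils built mainly from fibrillins. Fibulins hand tropoelastin over to the microfibrils, and lysyl oxidases crosslink it into insoluble elastin, which gives arteries, lung and skin their recoil. Bone holds little elastin, but osteoblasts lay down fibrillin microfibrils, which bind latent TGF-β and BMP, and use lysyl oxidase to crosslink collagen.

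Total counts ranged from 21390839 to 28234404 per library. Levels are given in CPM, counts scaled to a fixed library total with TMM factors that correct for differences in library composition, and 10 counts corresponded to 0.351 to 0.467 CPM. Of the 10 genes, 9 passed the filter on low counts along with 13679 genes in all, and *Fbln1* did not. Summed markers of osteoblasts were 111640 to 118940 CPM in Control, 112160 to 117620 CPM with BGP and 104410 to 110550 CPM with NaHPO4, while markers of blood cells stayed at or below 2.48 CPM and those of endothelium at or below 0.187 CPM, with *Kdr*, *Tie1* and *Tyrobp* at 0 counts. Of the blood markers, *Csf1r* and *Cd68* passed the filter, at 15 to 27 and 11 to 33 counts per library. The sum of blood markers was about as high as *Eln*, which averaged 1.67 CPM in Control. The label of bone-forming cells was borne out by its defining genes, the osteoblast markers. Of the 9 osteoblast markers, *Col1a1*, *Col1a2*, *Bglap*, *Bglap2* and *Alpl* were lower with NaHPO4 than in Control at a false discovery rate (FDR) below 0.05 (log2 fold change -0.22 to -0.14) and *Spp1* was higher. Their part in the lower values with NaHPO4 below was not tested. Summed osteocyte markers were 138 to 159 CPM in Control, 600.1 to 686 CPM with BGP and 386 to 445 CPM with NaHPO4, a sum that was mostly *Dmp1*, while *Pdpn* and *Mepe* did not pass in either comparison with Control and *Sost* was lower with NaHPO4. NaHPO4 replicate 1 had the lowest CPM of all 9 libraries for 5 of the 9 genes that passed, *Eln*, *Fbn1*, *Fbn2*, *Fbln5* and *Emilin1*, and the highest for *Fbln2*. How often this library was the lowest over all genes was not counted, so this may be a general trait of the library.

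Per kilobase of exon, the members covered a wide range in Control cells. *Lox* was the highest at 194 ± 4.43 CPM per kilobase (SD, n = 3), followed by *Emilin1* at 42.6 ± 1.29, *Fbln5* at 34.1 ± 0.695 and *Fbln2* at 18.3 ± 0.739. *Loxl1* at 7.56 ± 1.11 and *Fbn2* at 6.79 ± 0.370 could not be ordered, since their libraries overlapped and the longest transcript of each, used as the length, put *Fbn2* first at 12.0 against 8.98. Below them came *Mfap5* at 3.71 ± 0.376, *Fbn1* at 1.33 ± 0.240 and *Eln* at 0.202 ± 0.0527 CPM per kilobase. The level of *Lox* was 961 times that of *Eln*, or 481 times by the longest transcript. These cells therefore held abundant RNA for the crosslinker, for *Emilin1* and for 2 fibulins, and very little for elastin itself.

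**Figure D1:**
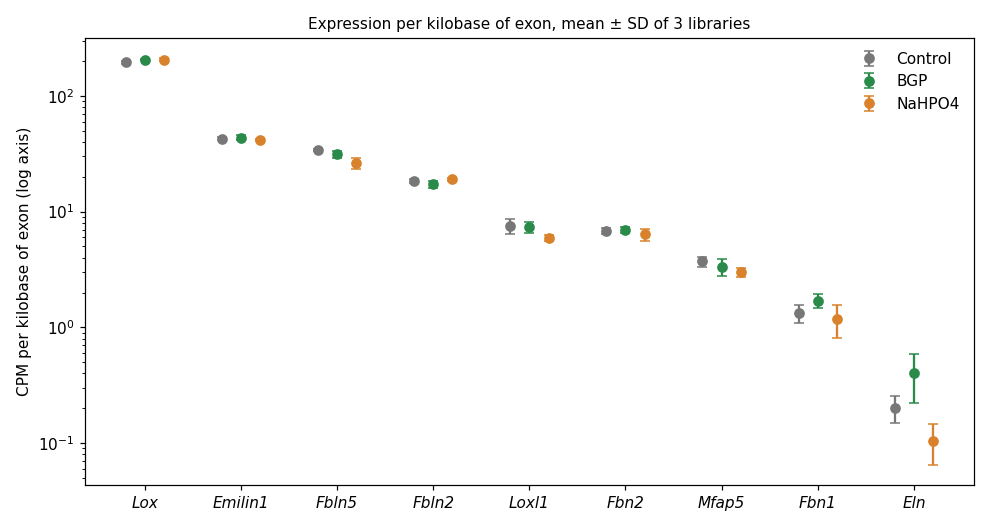
Level of the 9 genes that passed the filter, in CPM per kilobase of exon on a log axis, as points (mean) and bars (SD) of 3 libraries for Control (gray), BGP (green) and NaHPO4 (orange). *Lox* lies near 200 CPM per kilobase in every group and *Eln* below 1, and *Eln* is the gene whose groups stand farthest apart.

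*Eln* (ENSMUSG00000029675, chr5:134731445-134776322 on the minus strand of GRCm39, 37 exons) had read counts of 43, 42 and 30 in Control, of 112, 53 and 60 under BGP, and of 15, 24 and 31 under NaHPO4. In CPM these were 2.01, 1.83 and 1.18 in Control, 5.05, 2.38 and 2.58 with BGP, and 0.546, 0.842 and 1.21 with NaHPO4. Every BGP library was above every Control and every NaHPO4 library, while NaHPO4 replicate 3 lay slightly above Control replicate 3, so these groups overlapped. BGP replicate 1 stood apart at about double the other BGP libraries, and *Eln* varied 9.25-fold over the 9 libraries. The log2 fold change (log2FC) was 1.00 for BGP versus Control (SE 0.275, 95% interval 0.45 to 1.56), -0.94 for NaHPO4 versus Control (SE 0.326, interval -1.60 to -0.28), and 1.95 for BGP versus NaHPO4 (SE 0.297, interval 1.34 to 2.55), a 3.85-fold difference. Without BGP replicate 1 the first of these was 0.58. With a single library left out, NaHPO4 versus Control ranged from -1.24 to -0.70, and BGP versus NaHPO4 from 1.52 without BGP replicate 1 to 2.25 without NaHPO4 replicate 3. In a bulk sample, fewer cells that express a gene and less RNA per cell cannot be told apart.

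The sum of markers of smooth muscle, a main source of elastin in arteries, had the same order of groups as *Eln*. It reached 693 to 736 CPM in Control, 749 to 781 CPM with BGP and 554 to 612 CPM with NaHPO4, and its part in the result was not tested. Not all of the markers had this order. Of the 7 markers, *Myh11* and *Cnn1* stayed under 10 counts in every library. Of the 5 that passed the filter, *Acta2* alone was higher with BGP than in Control at an FDR below 0.05 (log2FC 0.16), *Tagln* had 0.13, and *Des*, *Lmod1* and *Smtn* had -0.19, -0.05 and -0.02. With NaHPO4, *Acta2* and *Tagln* were lower than in Control (-0.42 and -0.24) and the others had -0.31 to -0.10. Most of the sum was *Acta2*, a smooth muscle actin, at 415 to 455 CPM in Control, 476 to 508 CPM with BGP and 302 to 361 CPM with NaHPO4. Summed chondrocyte markers were 248 to 306, 340 to 446 and 185 to 264 CPM in the same order of groups, with *Acan* under 10 counts in every library, and their part was not tested either. Most of this sum was *Col2a1*, which was higher with BGP and lower with NaHPO4 than in Control at an FDR below 0.05 (log2FC 0.50 and -0.45). *Sox9* had log2FC of 0.03 and -0.07 in these 2 comparisons. *Col10a1*, below 1 CPM on average in each group, had 1.27 and 0.81, and neither of these 2 genes passed the test. Summed markers of blood cells and macrophages had the order of *Eln* too. They were 1.74 to 2.01 CPM in Control, 2.02 to 2.48 CPM with BGP and 1.52 to 1.72 CPM with NaHPO4. Of these markers, *Csf1r* and *Cd68* passed the filter, and neither was called at an FDR below 0.05 in any comparison. Their part in the result was not tested. An antisense long noncoding gene, *Gm30003*, covers 5.12% of the exon bases of *Eln* and had 0 counts in every library.

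**Figure D2:**
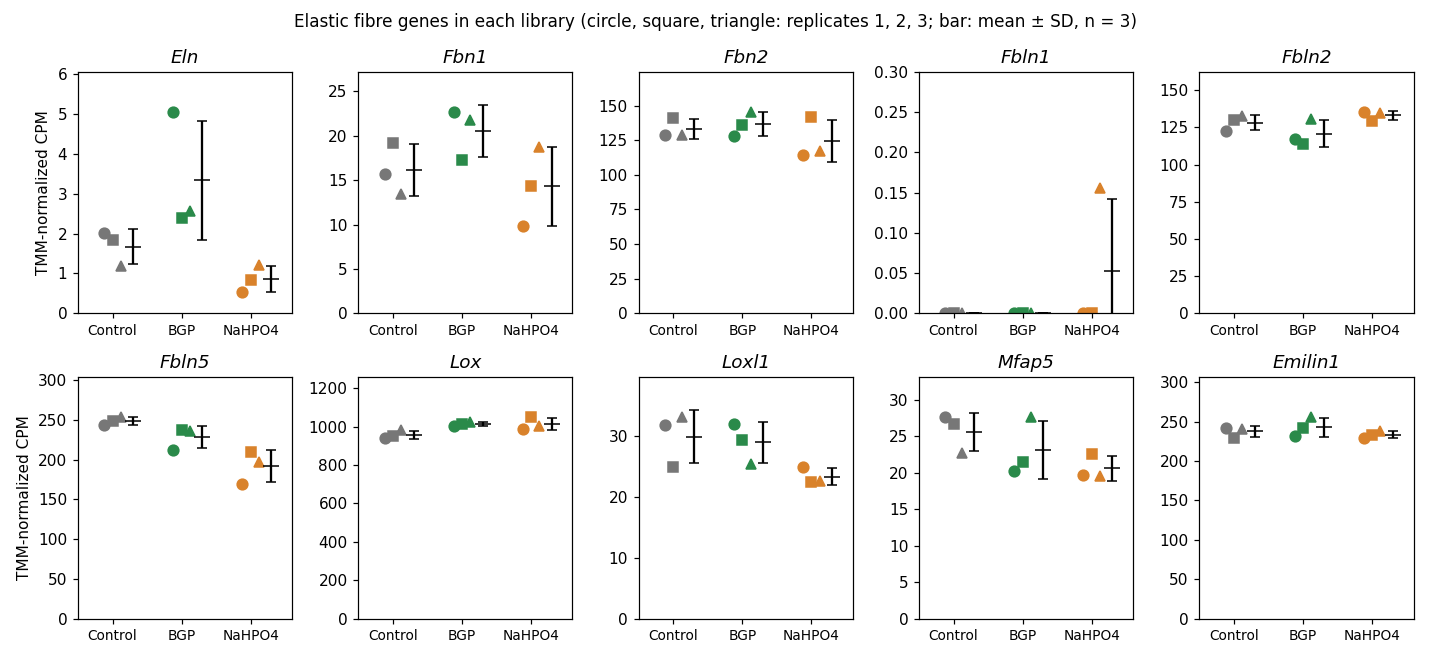
TMM-normalized CPM of the 10 genes in each library (circle, square and triangle for replicates 1, 2 and 3), with the mean and SD of 3 libraries beside each group and an axis that starts at 0 in every panel. *Eln* is highest with BGP, most of all in replicate 1 at 5.05 CPM, while *Lox*, *Emilin1*, *Fbn2* and *Fbln2* lie almost level.

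Fibulins are secreted proteins that bind both tropoelastin and microfibrils, and fibulin-5 also recruits lysyl oxidases. *Fbln5* and *Fbln2* were well counted, and *Fbln1* was not. The stretch of 199 bases before the first annotated base of the gene is shown for *Fbln5* (chr12:101785430-101785628, minus strand) and for *Fbln1* (chr15:85089951-85090149, plus strand), the highest and the lowest per kilobase of the 3 fibulin genes among the members. The bases are from the RefSeq promoter table, built on GRCm38.p6, and each matched GRCm39 exactly once. In it 5 of the 10 members were matched, and no such stretch of *Eln* is shown. Capitals mark the GC box GGGCGG on either strand.
Fbln5: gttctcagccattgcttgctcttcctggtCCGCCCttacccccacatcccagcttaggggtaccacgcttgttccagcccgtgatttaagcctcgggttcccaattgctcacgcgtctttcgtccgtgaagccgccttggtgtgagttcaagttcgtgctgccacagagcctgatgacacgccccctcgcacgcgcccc
Fbln1: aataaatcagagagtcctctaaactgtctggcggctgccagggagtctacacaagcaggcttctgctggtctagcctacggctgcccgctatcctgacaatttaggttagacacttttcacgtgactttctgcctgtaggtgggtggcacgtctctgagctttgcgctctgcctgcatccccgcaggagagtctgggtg
The *Fbln5* stretch held 1 GC box and 1 CCAAT, which 31.0% and 29.3% of 32817 RefSeq promoter stretches of this length also held, and the *Fbln1* stretch held neither. Both lacked TATAAA (in 9.9% of all), TGANTCA, the letters of an AP-1 site (5.4%), and GCGNGGGCG, those of an EGR site (4.3%). All were searched on both strands, and no hits overlapped. The share of G and C was 60.3% for *Fbln5* and 54.8% for *Fbln1*, beside a median of 52.8%. These differences depend on where the stretch ends. Of the full RefSeq windows of 300 bases, that of *Fbln5* with a start site 51 bases further on held 2 GC boxes. That of *Fbln1* 59 bases further on held 2 GC boxes and 1 EGR site. Their other windows, 686 and 0 bases on, held neither motif. The stretches of all promoters end at the RefSeq start site.

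*Fbln5* (ENSMUSG00000021186, chr12:101712556-101785429, minus strand, 11 exons) was at 243, 249 and 253 CPM in the Control libraries, 212, 237 and 236 CPM with BGP, and 170 (NaHPO4 replicate 1), 210 and 197 CPM with NaHPO4. The 3 groups did not overlap, with Control highest and NaHPO4 lowest. The log2FC was -0.12 for BGP versus Control (SE 0.0480, 95% interval -0.22 to -0.03), -0.37 for NaHPO4 versus Control (SE 0.0480, interval -0.47 to -0.27) and 0.25 for BGP versus NaHPO4 (SE 0.0482, interval 0.15 to 0.34). Over the alternatives tried, NaHPO4 versus Control ranged from -0.44 to -0.29. Without NaHPO4 replicate 1, BGP versus NaHPO4 was 0.16. The BGP libraries of *Fbln5* lay below those of Control, where the BGP libraries of *Eln* lay above them, but the difference of *Fbln5* between BGP and Control was small and had an adjusted p of 0.215 in edgeR's quasi-likelihood fit over all genes.

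*Fbln2* (ENSMUSG00000064080, chr6:91189437-91249522, plus strand, 18 exons) had 122, 130 and 132 CPM in Control, 117, 114 and 131 CPM with BGP, and 135, 130 and 135 CPM with NaHPO4. Its libraries overlapped between all groups, with BGP replicate 3 inside the range of Control and above the lowest NaHPO4 library. The log2FC was -0.09 for BGP versus Control (SE 0.0432), 0.05 for NaHPO4 versus Control and -0.14 for BGP versus NaHPO4 (SE 0.0427). With a single library left out, the last ranged from -0.20 to -0.10. *Fbln1* (ENSMUSG00000006369, chr15:85090150-85170737, plus strand, 15 exons) had 0 counts in 8 libraries and 4 counts, or 0.156 CPM, in NaHPO4 replicate 3. A count of 0 allows up to 3 counts, which is 0.105 to 0.140 CPM in these libraries and covers counting error only, so *Fbln1* RNA was not detectable at this depth in those 8 libraries.

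Fibrillin-1 and fibrillin-2 form the core of microfibrils, and the product of *Mfap5* binds along them. *Fbn1* (ENSMUSG00000027204, chr2:125142514-125349913, minus strand, 65 exons) had read counts of 336, 442 and 342 in Control, of 503, 384 and 506 under BGP, and of 270, 409 and 480 under NaHPO4. In CPM these were 15.7, 19.2 and 13.5, then 22.7, 17.2 and 21.7, then 9.82, 14.3 and 18.7. The groups overlapped, since BGP replicate 2 lay below Control replicate 2 and NaHPO4 replicate 3. The log2FC was 0.35 for BGP versus Control (SE 0.132, 95% interval 0.09 to 0.62), -0.17 for NaHPO4 versus Control (SE 0.135, interval -0.45 to 0.10), and 0.53 for BGP versus NaHPO4 (SE 0.131, interval 0.26 to 0.80). With a single library left out, the last ranged from 0.32 without NaHPO4 replicate 1 to 0.76 without NaHPO4 replicate 3. Without NaHPO4 replicate 1, the value for NaHPO4 versus Control was 0.04. The antisense gene *Gm9913* covers 20.1% of the exon bases of *Fbn1* and had at most 2 counts in any library. The kit marks strand, but the sources used here do not say whether counting used it.

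*Fbn2* (ENSMUSG00000024598, on chromosome 18, 65 exons) was counted about as often as *Fbln2*, at 129, 141 and 129 CPM in Control, 128, 136 and 145 CPM with BGP, and 114, 142 and 117 CPM with NaHPO4. The groups overlapped, and the log2FC was 0.04, -0.10 and 0.13 for BGP versus Control, NaHPO4 versus Control and BGP versus NaHPO4, with intervals of -0.07 to 0.15, -0.21 to 0.02 and 0.02 to 0.24. Without NaHPO4 replicate 2, the library with the highest value of its group, NaHPO4 versus Control was -0.20 and BGP versus NaHPO4 was 0.24. *Mfap5* (ENSMUSG00000030116, chr6:122470878-122508875, plus strand, 10 exons) had 27.6, 26.7 and 22.7 CPM in Control, 20.2, 21.5 and 27.6 CPM with BGP, and 19.8, 22.6 and 19.5 CPM with NaHPO4. All NaHPO4 libraries were below all Control libraries, although Control replicate 3 and NaHPO4 replicate 2 were almost equal. The log2FC of *Mfap5* for NaHPO4 versus Control was -0.31 (SE 0.0873, interval -0.49 to -0.13), and -0.39 to -0.25 with a single library left out. With BGP it was -0.14 (SE 0.0880), and between BGP and NaHPO4 0.16 (SE 0.0886), with an interval of -0.02 to 0.34.

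*Lox* and *Loxl1* encode copper-dependent enzymes that oxidize lysines so that elastin and collagen chains can crosslink, and *Loxl1* acts mainly on elastin. *Lox* (ENSMUSG00000024529, on chromosome 18, 7 exons) had 940, 952 and 983 CPM in Control, 1004, 1016 and 1023 CPM with BGP, and 990, 1049 and 1006 CPM with NaHPO4. All libraries of both phosphates lay above those of Control, by little. The log2FC was 0.08 with BGP (SE 0.0311, 95% interval 0.02 to 0.14) and 0.08 with NaHPO4 (SE 0.0310, interval 0.02 to 0.15), and -0.00 between them (interval -0.06 to 0.06). *Loxl1* (ENSMUSG00000032334, chr9:58195014-58220495, minus strand, 7 exons) had 31.8, 24.9 and 33.0 CPM in Control, 32.0, 29.4 and 25.4 CPM with BGP, and 25.0, 22.4 and 22.5 CPM with NaHPO4. The NaHPO4 libraries lay below those with BGP, while Control replicate 2 lay among them. The log2FC was -0.05 with BGP (SE 0.0815), -0.36 with NaHPO4 (SE 0.0818, interval -0.53 to -0.20) and 0.31 between BGP and NaHPO4 (SE 0.0824, interval 0.14 to 0.48). With a single library left out, the second ranged from -0.48 to -0.28 and the last from 0.23 to 0.40. The value with BGP versus Control turned positive, at 0.03 without Control replicate 3 and 0.04 without BGP replicate 3.

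*Emilin1* (ENSMUSG00000029163, chr5:31070717-31078622, plus strand, 8 exons) encodes a glycoprotein at the interface of elastin and microfibrils. It had 242, 229 and 241 CPM in Control, 231, 242 and 256 CPM with BGP, and 229, 233 and 238 CPM with NaHPO4. These libraries spanned 1.11-fold, the narrowest range of the 9 genes. The log2FC was 0.03, -0.03 and 0.06 in the 3 comparisons, with intervals of -0.04 to 0.11, -0.10 to 0.05 and -0.01 to 0.13.

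**Figure D3:**
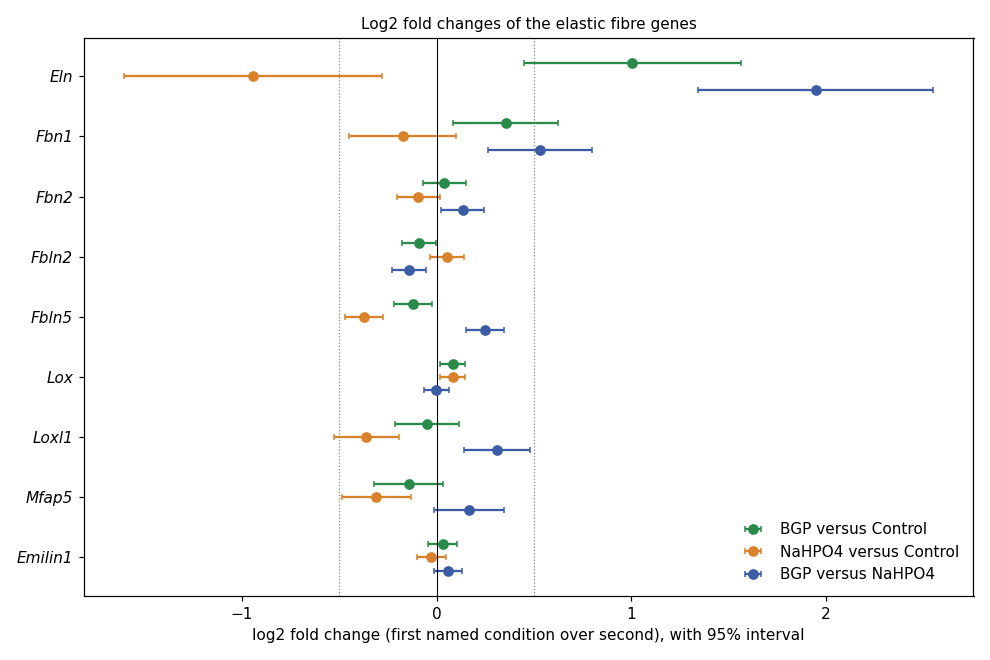
Log2FC with 95% interval of the 9 genes that passed the filter, for BGP versus Control (green), NaHPO4 versus Control (orange) and BGP versus NaHPO4 (blue), with dotted lines at an absolute log2FC of 0.5. *Eln* has the widest intervals and lies on opposite sides of 0 for the 2 phosphates, at 1.00 and -0.94.

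The calls of edgeR's quasi-likelihood fit over all genes are counted here for the 9 genes beside the share of all 13679 genes, and nothing is read from them, since *Eln* was used to choose the group and the comparisons share libraries. For BGP versus Control, 1 gene was higher at an FDR below 0.05 (*Eln*) and 0 were lower, while of all genes 1.86% were higher and 0.665% lower. Without BGP replicate 1 or Control replicate 1, 2 or 3 (log2FC 0.58, 1.15, 1.08 and 0.80), *Eln* was not called, nor with limma. With no filter on low counts *Fbn1* and *Fbln5* were called too (0.35 and -0.12), and *Fbn1* also in a fit of only these 2 groups. With an absolute log2FC above 0.5 as well, the study's definition of a differentially expressed gene (DEG), *Eln* still counted, and DEGs were 0.556% of all genes. At an unadjusted p under 0.05, 3 were higher and 2 lower (7.21% and 6.18% of all genes), and with DESeq2 0 passed in either direction (2.21% of all). The libraries did not overlap for *Eln*, *Lox* and *Fbln5*, and for 18.5% of all genes.

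For NaHPO4 versus Control, 0 were higher and 3 were lower at an FDR below 0.05 (*Fbln5*, *Loxl1* and *Mfap5*), beside 3.43% and 3.95% of all genes. Scaling by total counts only added *Lox*, which gave 1 higher and 3 lower. *Eln* was not among the 3, but was called with the likelihood ratio test, limma and no filter on low counts, and without NaHPO4 replicate 3, Control replicate 3 or BGP replicate 1 (log2FC -1.24, -1.15 and -0.94). *Fbn2* was called without NaHPO4 replicate 2 (-0.20). *Mfap5* was not called without Control replicate 1 or 2 or NaHPO4 replicate 1 or 3 (-0.25, -0.28, -0.28 and -0.27), nor *Loxl1* without Control replicate 3 (-0.28). At an unadjusted p under 0.05, 1 was higher and 4 were lower (9.8% and 10.1% of all genes), and with DESeq2 3 passed (6.43% of all). None of the 9 was a DEG (0.716% of all genes), and *Lox*, *Fbln5* and *Mfap5* did not overlap (23.2% of all).

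For BGP versus NaHPO4, 4 were higher (*Eln*, *Fbn1*, *Fbln5* and *Loxl1*) and *Fbln2* was lower, beside 3.33% and 2.05% of all genes. At an unadjusted p under 0.05, 5 were higher and 1 lower (9.12% and 7.81% of all genes), and with DESeq2 2 passed, *Eln* and *Loxl1* (4.67% of all). *Fbn1* was not called without BGP replicate 1 or 3 or NaHPO4 replicate 1 (log2FC 0.45, 0.49 and 0.32), and *Loxl1* was not called without BGP replicate 1 or 2 or NaHPO4 replicate 2 or 3 (0.23, 0.30, 0.28 and 0.29). *Fbln2* was not called without BGP replicate 1 or 2 (-0.12 and -0.10) or any single NaHPO4 library (-0.16 to -0.13), and *Fbn2* was called without NaHPO4 replicate 2 (0.24) and with no filter on low counts (0.13). *Eln* and *Fbn1* were DEGs (0.585% of all genes), and *Eln*, *Fbln5* and *Loxl1* did not overlap (21.2% of all). The median log2FC of the 9 genes was 0.03, -0.17 and 0.16 in the 3 comparisons, and that of all tested genes lay at 0.00 in each.

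Of 62 further genes listed for the elastic fibre pathway, 47 passed the filter. Compared to Control, 5 of them were higher with BGP and 0 lower at an FDR below 0.05 (1.86% and 0.665% of all genes), with 8 and 4 at an unadjusted p under 0.05 (7.21% and 6.18%) and 5 and 1 (*Ctsl*) with DESeq2. With NaHPO4, 2 were higher and 10 lower (3.43% and 3.95% of all genes), with 4 and 18 at an unadjusted p under 0.05 (9.8% and 10.1%). BGP versus NaHPO4 gave 10 higher and 1 lower (3.33% and 2.05% of all genes), with 21 and 1 at an unadjusted p under 0.05 (9.12% and 7.81%). The medians of their log2FC were 0.01, -0.04 and 0.09 in these 3 comparisons, and DEGs numbered 2, 1 and 1. The list was written with earlier results for *Ltbp2*, *Itgb3* and *Vcan* known. These genes are among the 5 that were higher with BGP than in Control, and every DEG counted here is one of them. The counts therefore include calls known in advance, and nothing is read from them for the list as a whole. Adjusted p-values of its genes below are from edgeR's quasi-likelihood test over all 13679 genes.

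*Ltbp2* belongs by name to the family of latent TGF-β binding proteins, and its product attaches to fibrillin-1. RNA of *Ltbp2* rose from 7.19, 7.48 and 8.77 CPM in Control to 12.9, 13.2 and 9.32 CPM with BGP (log2FC 0.59, adjusted p = 0.00239). With NaHPO4 it had 7.96 to 8.97 CPM, and 2 of these 3 libraries lay within the range of Control. The difference between BGP and NaHPO4 was 0.50 (adjusted p = 0.00522) and lost its call without BGP replicate 1 or 2 (0.43 and 0.42). *Ltbp4*, which assists the assembly of elastin, fell with NaHPO4 (log2FC -0.23, adjusted p = 6.39e-05), and its BGP libraries exceeded those with NaHPO4 (0.16, adjusted p = 0.00657). Among 5 tested integrin chains that bind fibrillin or fibulin-5, *Itgb3* rose with BGP (log2FC 0.51, adjusted p = 0.000457), from 13.8 to 16.5 CPM in Control to 20.5 to 21.5 CPM, and *Itgb5* rose less (0.16, adjusted p = 0.00225). *Itgb3* was also higher with BGP than with NaHPO4 (0.33, adjusted p = 0.0202), a call lost without BGP replicate 1 or 2 (0.32 in each) or NaHPO4 replicate 1 or 2 (0.28 and 0.25), and so was *Itgb1* (0.12, adjusted p = 0.0161), lost without BGP replicate 2 or NaHPO4 replicate 2 or 3 (0.10, 0.13 and 0.10) and with scaling by total counts only (0.10).

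Versican, a large proteoglycan that binds fibrillin microfibrils and is encoded by *Vcan*, rose with both phosphates. It had 39.0, 45.4 and 41.1 CPM in Control, 57.3, 53.7 and 62.4 CPM with BGP and 66.0, 71.8 and 74.9 CPM with NaHPO4. The 3 groups did not overlap. The log2FC was 0.47 with BGP (adjusted p = 7.88e-07), 0.76 with NaHPO4 (adjusted p = 2.26e-12) and -0.29 between BGP and NaHPO4 (adjusted p = 0.000422). *Loxl3*, another lysyl oxidase, rose with NaHPO4 (log2FC 0.19, adjusted p = 0.000297) and with BGP (0.13, adjusted p = 0.0390), although the latter lost its call without Control replicate 1 or 2, any single BGP replicate or NaHPO4 replicate 2 (0.10 to 0.14). *Loxl4* fell with NaHPO4 (-0.17, adjusted p = 0.00281), and BGP exceeded NaHPO4 (0.16, adjusted p = 0.00578), the latter not without BGP replicate 1 or NaHPO4 replicate 3 (0.14 and 0.13).

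Of 5 tested enzymes listed for cleaving elastin, 4 fell with NaHPO4 compared to Control, beside 3.95% of all genes. They were *Mmp14*, a membrane-bound matrix metalloproteinase (log2FC -0.26, adjusted p = 3.95e-07), *Ctsk*, the collagenolytic cathepsin K (-0.20, adjusted p = 8.43e-05), *Mmp2* (-0.14, adjusted p = 0.00620) and *Ctsl* (-0.13, adjusted p = 0.0123). *Mmp2* lost its call without Control replicate 2 (-0.11), and *Ctsl* without Control replicate 2 (-0.12) or NaHPO4 replicate 2 (-0.13). *Mmp14* had 1069, 1104 and 1073 CPM in Control and 915, 910 and 895 CPM with NaHPO4, and with BGP it had 1009, 1054 and 1099 CPM. The fifth, *Mmp9* or gelatinase B, averaged 1.22 CPM under BGP, 0.515 CPM in Control and 0.574 CPM under NaHPO4. It was 2.30-fold higher with BGP than in Control (adjusted p = 0.140), which passed with the likelihood ratio test only, and its log2FC with NaHPO4 was 0.13 (adjusted p = 0.922). *Mmp14* and *Ctsk* were also higher with BGP than with NaHPO4 (0.22 and 0.14, adjusted p = 1.25e-05 and 0.00679). *Bmp1*, which removes the propeptides of procollagen and of lysyl oxidase, fell from 290 to 298 CPM in Control to 247 to 258 CPM with NaHPO4 (log2FC -0.21, adjusted p = 2.11e-05), and BGP was higher than NaHPO4 (0.20, adjusted p = 8.05e-05).

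*Neu1*, the neuraminidase of the elastin receptor complex, fell with NaHPO4 (log2FC -0.27, adjusted p = 0.000118), and BGP was higher than NaHPO4 (0.20, adjusted p = 0.00707), though not without NaHPO4 replicate 1 (0.16). *Ctsa*, the cathepsin that protects it in that complex, was higher under BGP than under NaHPO4 (0.14, adjusted p = 0.00591). The microfibril-associated *Adamtsl4* and *Adamtsl5* fell with NaHPO4 (log2FC -0.33 and -0.20, adjusted p = 0.000227 and 0.0299). *Adamtsl5* lost its call without any single Control or NaHPO4 library, at -0.21 to -0.19, and with DESeq2 or scaling by total counts. Of the 12 microfibril and elastin-associated genes listed, 6 passed the filter and 0 of these changed in any comparison at an FDR below 0.05, with 1 at an unadjusted p under 0.05 in each and 0 with DESeq2. Without Control replicate 2, *Efemp2*, the gene of fibulin-4, was called lower with NaHPO4 (log2FC -0.15, against -0.11 with all libraries).

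**Figure D4:**
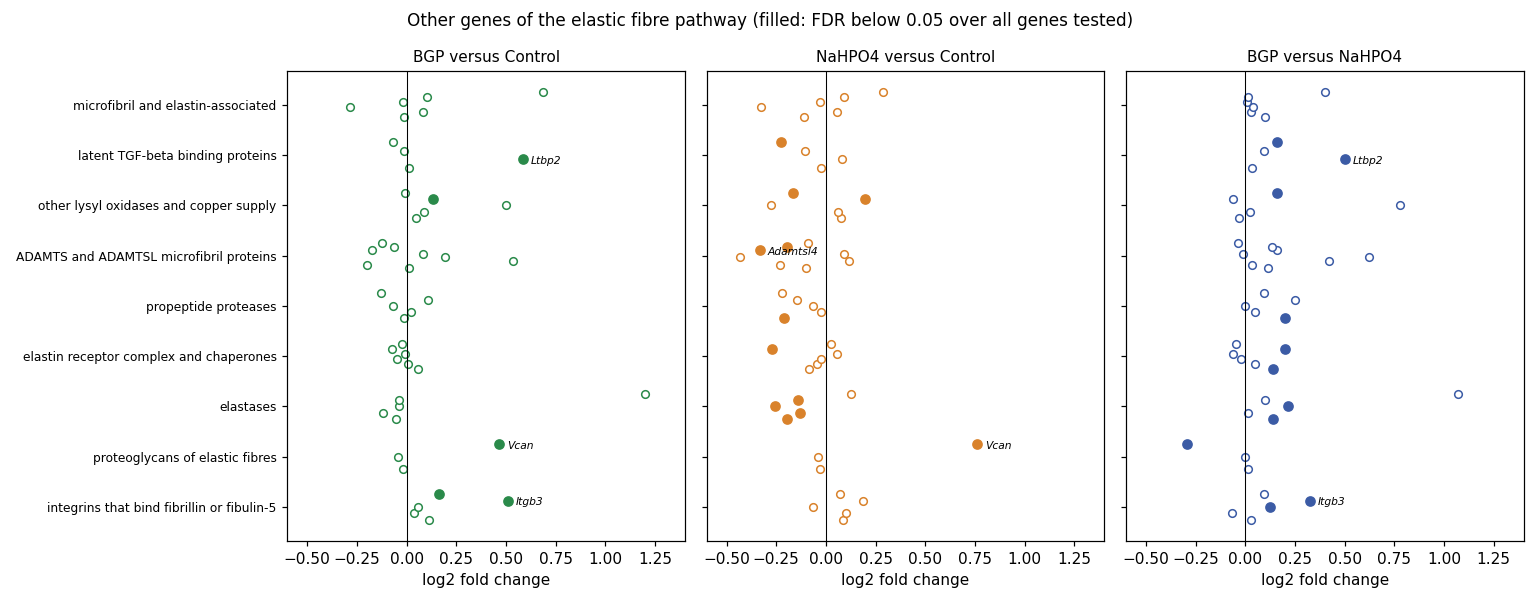
Log2FC of the 47 further pathway genes that passed the filter, by their role (rows), for BGP versus Control, NaHPO4 versus Control and BGP versus NaHPO4 (panels), filled where the FDR over all tested genes is below 0.05. Filled points lie right of 0 for BGP versus Control, and 4 of the 5 enzymes in the row of elastases are filled and left of 0 for NaHPO4 versus Control.

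The genes whose pattern was most like that of *Eln* were sought among the other 13678 tested genes by Pearson's r of log2 CPM over the 9 libraries. They were *Mbd6*, a methyl-CpG-binding domain protein (r = 0.95, Spearman's rho 0.88), *Swsap1*, a DNA repair factor (0.94, rho 0.85), *Dtna*, which encodes the cytoskeletal protein dystrobrevin alpha (0.93, rho 0.92), and the predicted genes *Gm5835* (0.93, rho 0.88) and *Gm43300* (0.93, rho 0.90). The libraries share 3 conditions, so the points are not independent, and each of these genes was highest in BGP replicate 1 and lowest in NaHPO4 replicate 1, as *Eln* was. These r are the highest of 13678, and the level that chance alone would reach was not computed, so nothing is read from them. By Spearman's rho the 5 most alike were others, *Ier2* and *Plekhh3* at 0.97, *Cdkn1a* at 0.97, and *Zfp142* and *Vasp* at 0.95, and the 5 named by r ranked from 24 to 92. Likeness in pattern was not likeness in size. *Mbd6* moved only between 47.0 and 53.9 CPM, with log2FC of 0.03 and -0.07 for BGP and NaHPO4 versus Control, while *Dtna* had 6.07, 6.70 and 6.14 CPM in Control, 9.42, 7.95 and 9.02 CPM with BGP and 3.89, 5.47 and 6.01 CPM with NaHPO4. Of the other members, *Fbn1* was the most like *Eln* (r = 0.86, rho 0.85, rank 61) and *Fbln2* the least (r = -0.72, rho -0.65). *Fgf23*, the phosphate hormone the study set out from, had r = 0.67 (rank 645) and rho 0.48 (rank 1751) with *Eln*. Its log2FC versus Control was 2.78 with BGP and 0.35 with NaHPO4, where *Eln* had -0.94 with NaHPO4.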

How the data were processed

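Poly(A) libraries of MC3T3-E1 cells, 3 per group, were made with a stranded kit. In the AIR software, the authors aligned them to the GRCm39 build, annotated by Ensembl release 104, and they deposited whole-number counts per gene with no normalization. The aligner, the counting program and the use of strand are not given in the sources used here. A second deposited table holds a TMM-scaled signal, equal to the counts times 1 factor per library (1.01 to 1.32), and entered an alternative only. Both hold 55416 genes.

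Low counts were removed by filterByExpr in edgeR 4.0.16 (count minimum 10), and the remaining counts were scaled by TMM and fitted in 1 model of all 9 libraries with glmQLFit. The 3 comparisons were tested with glmQLFTest and adjusted by the Benjamini-Hochberg method over 13679 genes. SEs came from the quasi-likelihood F statistic, and 95% intervals from the t distribution. Log2 CPM used a prior count of 2. Total counts of 21390839 to 28234404 put 10 counts below 1 CPM. No replicates agreed within sampling noise (chi-square per degree of freedom 2.61 to 4.84). On simulated data for BGP versus Control, 187 of 197 genes changed 2-fold were recovered among 13499 genes. The simulation gave every gene the same dispersion between libraries, so it does not measure recovery for genes as variable as *Eln*. GENCODE release M39 for GRCm39 gave positions and exon lengths.

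The members and gene lists were chosen with earlier results of these data known. Named were the 10 members, pathway genes with an FDR below 0.05 in any comparison, the 5 genes most like *Eln*, and summed markers. Single marker genes, *Efemp2*, *Mmp9*, *Fgf23*, *Gm30003*, *Gm9913* and the genes most like *Eln* by Spearman's rho were named after their values were seen. The markers of tendon and of adipocytes summed to 22.5 to 28.5 and 10.5 to 16.2 CPM, with *Tnmd* and *Cidec* at 0. The results were recomputed with only the 2 compared groups in the fit, the likelihood ratio test, DESeq2 1.42.0, limma 3.58.1 on log2(value + 1) of that table, scaling by total counts or DESeq2's size factors, no filter or 10 counts in every library, the study's minimum log2FC of 0.5, the replicate number as a block, and 1 library at a time left out. R 4.3.3, Python 3.11.15, pandas 2.3.3 and matplotlib 3.10.9 were used.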

Additional observations from a re-analysis of the deposited data

How the results depend on the processing

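Over single genes, 1326 values under an alternative kept their side of the FDR threshold and, unless they moved by less than 1 SE, their direction, 56 fell back behind it, 18 crossed it, and 4 reversed, none of them called. The reversed values came from leaving out 1 library: over such fits the log2FC ranged from -0.41 to 0.036 for *Fbn1* with NaHPO4, from -0.17 to 0.035 for *Loxl1* with BGP, and from -0.0058 to 0.066 for *Emilin1* with BGP, all versus Control. The number of members below an FDR of 0.05 for BGP versus Control was 1, against 0 with DESeq2 and with limma on the TMM table, 2 with only the 2 groups in the fit, 3 with no filter on low counts, and 0 to 1 with a library left out. For NaHPO4 versus Control it was 3, against 0 with the minimum log2FC and 2 to 4 with a library left out. For BGP versus NaHPO4 it was 5, against 2 with DESeq2, 2 with the minimum log2FC and 2 to 5 with a library left out. The further pathway genes numbered 5, 12 and 11 in these comparisons, against 2, 1 and 1 with the minimum log2FC and 4 to 6, 10 to 14 and 8 to 11 with a library left out. The cause was not tested, apart from the stricter rule of the minimum log2FC. Deviations of libraries with the same replicate number had a mean correlation of 0.0127 (-0.0092 to 0.0426 over 9 pairs). Over 18 pairs with different numbers it was -0.0063 (-0.0456 to 0.0239). The Control and NaHPO4 pairs of the same number, at 0.030, 0.043 and 0.041, lay above all of these. Whether the number marks anything shared by the libraries was not tested. With the replicate block the members numbered 1, 3 and 5 and the pathway genes 5, 13 and 11. At 15 to 112 counts per library, *Eln* was limited by depth more than any other member that passed the filter.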

Other observations

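Of 60 pathway genes in the count table, 47 passed the filter on low counts, and some well-known elastic fibre genes were among those that did not (chosen after their values were seen). *Mfap2*, which encodes a main microfibril-associated glycoprotein, had 1 count over all 9 libraries, *Mfap4* had 1 to 8 counts per library, and *Efemp1*, the gene of fibulin-3, had 0. *Mmp12*, the elastase of macrophages, had 0 counts and *Elane*, that of neutrophils, had 2 in all. Other genes of the same lists were abundant in every library. *Efemp2*, the gene of fibulin-4, ranged from 197 to 232 CPM, *Ltbp1* from 443 to 472 CPM and *Fn1*, fibronectin, from 8349 to 9355 CPM, and none of them differed between groups at an FDR below 0.05 in edgeR's quasi-likelihood fit of all 9 libraries. Without Control replicate 2, *Efemp2* was called lower with NaHPO4 than in Control (log2FC -0.15).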
